A study of Bos taurus with 48 samples.

Results

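The effect of dietary energy at a low protein supply was examined in subcutaneous adipose tissue of 12 Norwegian Red heifers at 12 months of age, 6 fed the low-protein, high-energy diet (LPHE) and 6 fed the low-protein, low-energy diet (LPLE). These are all samples labelled with the time point Exp and the protein level LoPro, that is 12 of the 48 samples of the series, and they were divided by the labelled energy level, Hi or Lo. The series holds 24 heifers on 4 diets, each sampled at 12 months and again in month 7 of gestation, and gene expression was measured by sequencing of polyadenylated RNA from biopsies taken beside the tail base. LPHE heifers had free access to grass silage, LPLE heifers received a restricted amount of silage mixed with wheat straw, and both received the concentrate of lower protein content. Per the study, LPHE heifers also took in more crude protein per day, entered puberty earlier and were heavier at 12 months. These differences cannot be told apart from that of energy, so the energy effect here means that of the whole diet. In both diets 3 heifers came from the high milk yield line (HMY) and 3 from the low clinical mastitis line (LCM). The diets were fed until the heifers were pregnant, so in month 7 of gestation the same heifers were on a joint diet. The corresponding high-protein diets, HPHE and HPLE, also had 6 heifers each. A group is therefore a set of single biopsies of separate animals, and the biopsies hold adipocytes together with the vessels, nerves, connective tissue and immune cells around them.

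Adipocytes of cattle make fatty acids mainly from acetate, which is activated to acetyl-CoA in the cytosol, lengthened with NADPH as reductant and stored as triglyceride in a lipid droplet. When the energy supply falls, synthesis slows and the droplet is emptied, fatty acids are burnt in mitochondria, and the adipocyte releases less leptin, the hormone that reports fat stores to the brain. Around the cells lies a matrix of collagen and elastic fibres, made by fibroblasts and their precursors, which is rebuilt as the depot grows or shrinks.

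Between 15355145 and 49699041 reads per LPHE heifer and between 14815595 and 43367440 per LPLE heifer were counted on genes. All levels are CPM, that is counts scaled by the size of the library, and all log2 fold changes are LPHE over LPLE with their standard error. Of 13339 genes tested, 1216 (9.12%) were differentially expressed genes (DEG) at a false discovery rate (FDR) under 0.1 in the likelihood ratio test of edgeR. Of these, 746 genes (5.59% of those tested) were higher and 470 (3.52%) were lower in LPHE. With levels scaled by library size alone, in place of the TMM factors used throughout, the split was 539 higher and 735 lower. The median log2 fold change was 0.66 among the genes that were higher and -0.69 among those that were lower, against -0.02 over all genes tested, and 131 genes rose and 120 fell by more than 1 on the log2 scale. In 107 of the higher and 39 of the lower DEG the ranges of both diets did not overlap, and over all tested genes every LPHE heifer lay above every LPLE heifer in 118 (0.885%) and below in 53 (0.397%). Most DEG therefore had overlapping ranges. By the quasi-likelihood F test of edgeR, 650 of the higher and 355 of the lower DEG were called too.

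The study's own tables of fatty acid, energy and antioxidant genes cover 87 of the tested genes, of which 70 were higher and 10 lower in LPHE. These genes were picked by the study on these samples, so their count is no independent evidence of a direction. Outside those tables stood 676 higher and 460 lower DEG, which are the main subject here. The files give Ensembl identifiers only, and symbols were available for the 1006 tested genes that the study's tables name. Of these, 564 were higher and 284 lower DEG of this same contrast, so most members of any named group are DEG whatever the group. Of the DEG, 368 had no symbol. No gene family or marker list could be followed through most of its members, so genes are given one by one and a gene group means the members with a symbol. The members that could be named bear a symbol mainly because the study listed them as DEG, so their counts are given as description only. Among genes without a symbol, ENSBTAG00000039718 (log2 fold change 4.73 ± 1.31, FDR = 0.0146) and ENSBTAG00000022960 (log2 fold change 4.27 ± 1.14, FDR = 0.0112) were higher in LPHE. Both had their highest level in LPHE heifer 24, at 20.6 and 14.6 CPM, and under 4 CPM in every other heifer. Without heifer 24 the log2 fold change of ENSBTAG00000022960 was 2.90 (FDR = 0.0736), and ENSBTAG00000039718 no longer passed the filter on low counts. Of the genes that fell, ENSBTAG00000008842 (log2 fold change -1.44 ± 0.31, FDR = 0.00152) had the smallest p-value among those without a symbol.

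A single heifer of each diet lay toward the other diet. Heifer 12 was the lowest LPHE heifer in 545 of the 746 higher DEG (73.1%) and the highest LPHE heifer in 275 of the 470 lower DEG (58.5%). Heifer 4 was the highest LPLE heifer in 373 of the higher DEG (50%) and the lowest LPLE heifer in 180 of the lower DEG (38.3%). For the lower DEG, LPLE heifer 8 of the LCM line came next, as the lowest LPLE heifer in 137 (29.1%). Heifers 12 and 4 came from the HMY line. Heifer 12 lay beyond the median of the LPLE heifers in 220 of the 1216 DEG (18.1%) and heifer 4 beyond the median of the LPHE heifers in 135 (11.1%), while the other heifers did so in 3 to 68. Without heifer 12 the count of DEG rose to 2272, with 1230 higher and 1042 lower, and without heifer 4 to 1845, with 1019 higher and 826 lower. The count fell most without LPLE heifer 18, to 607, and it was 657 without LPHE heifer 24, 693 without LPLE heifer 14 and 697 without LPHE heifer 5. The fit was repeated without each of the 12 heifers in turn, and below a gene is described as called in a number of these fits where its call did not hold in all of them.

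**Figure D1:**
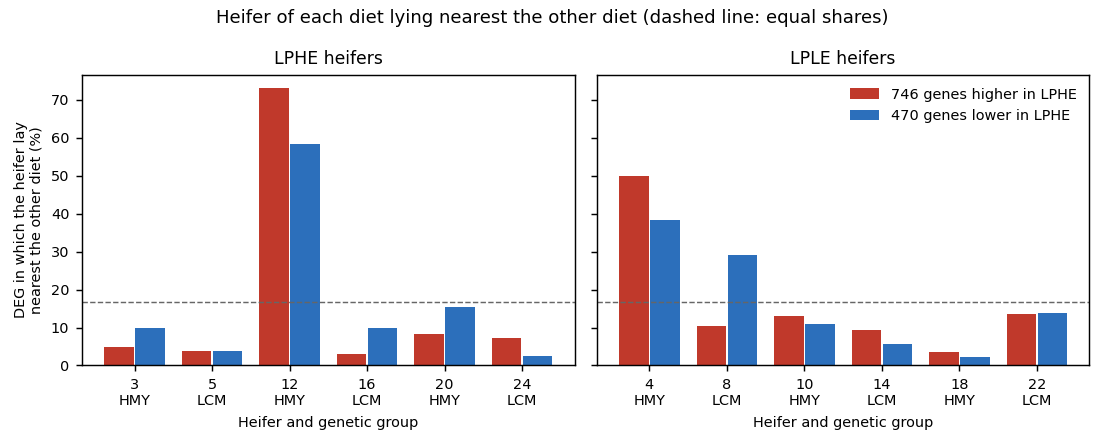
Share of DEG (y axis, percent) in which each heifer (x axis, with its genetic group) lay nearest the other diet among the 6 heifers of its own diet, for LPHE heifers (left) and LPLE heifers (right). Red bars stand for the 746 genes higher and blue bars for the 470 genes lower in LPHE, and the dashed line marks equal shares. Heifer 12 (73.1% and 58.5%) and heifer 4 (50% and 38.3%) stand out, and for the lower genes LPLE heifer 8 follows (29.1%).

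Named genes of adipocyte hormones went in both directions, with LEP and C19orf80 higher in LPHE and NUCB2 lower. NNAT, listed with them though not a hormone gene, was lower too, and of 2 named lipid droplet genes 1 was higher. LEP, which codes for leptin, ranged from 309.7 to 735 CPM (median 497) in LPHE and from 75.8 to 271 CPM (median 191) in LPLE heifers. The diets did not overlap, and the difference (log2 fold change 1.60 ± 0.38, FDR = 0.00434) was at the smallest p an exact permutation test of 6 against 6 can give (two-sided p = 0.00216). C19orf80, also known as ANGPTL8, codes for an inhibitor of lipoprotein lipase that rises with feeding, and it ranged from 184 to 502 CPM (median 310.0) in LPHE and from 18.9 to 124 CPM (median 38.2) in LPLE. Again no heifer crossed over, although LPLE heifer 4, at 124 CPM, came closest to the LPHE heifers (log2 fold change 2.72 ± 0.54, FDR = 4.86e-04). PLIN5, which coats lipid droplets and ties them to mitochondria, was low in both diets, at 1.28 to 23.9 CPM (median 7.32) in LPHE and 0.417 to 3.56 CPM (median 0.873) in LPLE (log2 fold change 2.81 ± 0.62, FDR = 0.00196). Its ranges overlapped only because LPHE heifer 12 lay below LPLE heifers 4 and 14, and every other LPHE heifer was above all LPLE heifers. CIDEC, which drives the fusion of droplets, was not called (log2 fold change 0.58 ± 0.23, FDR = 0.115). S100B, a calcium-binding protein of adipocytes and glial cells, had the smallest p-value of all genes (log2 fold change 1.69 ± 0.25, FDR = 1.06e-07). It ranged from 232 to 595 CPM (median 426) in LPHE and from 75.4 to 179.7 CPM (median 129) in LPLE, without overlap. CRYAB, a small heat shock protein, did not overlap either, with 236 to 597 CPM (median 525) in LPHE and 98.2 to 177 CPM (median 143) in LPLE (log2 fold change 1.68 ± 0.32, FDR = 3.52e-04).

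**Figure D2:**
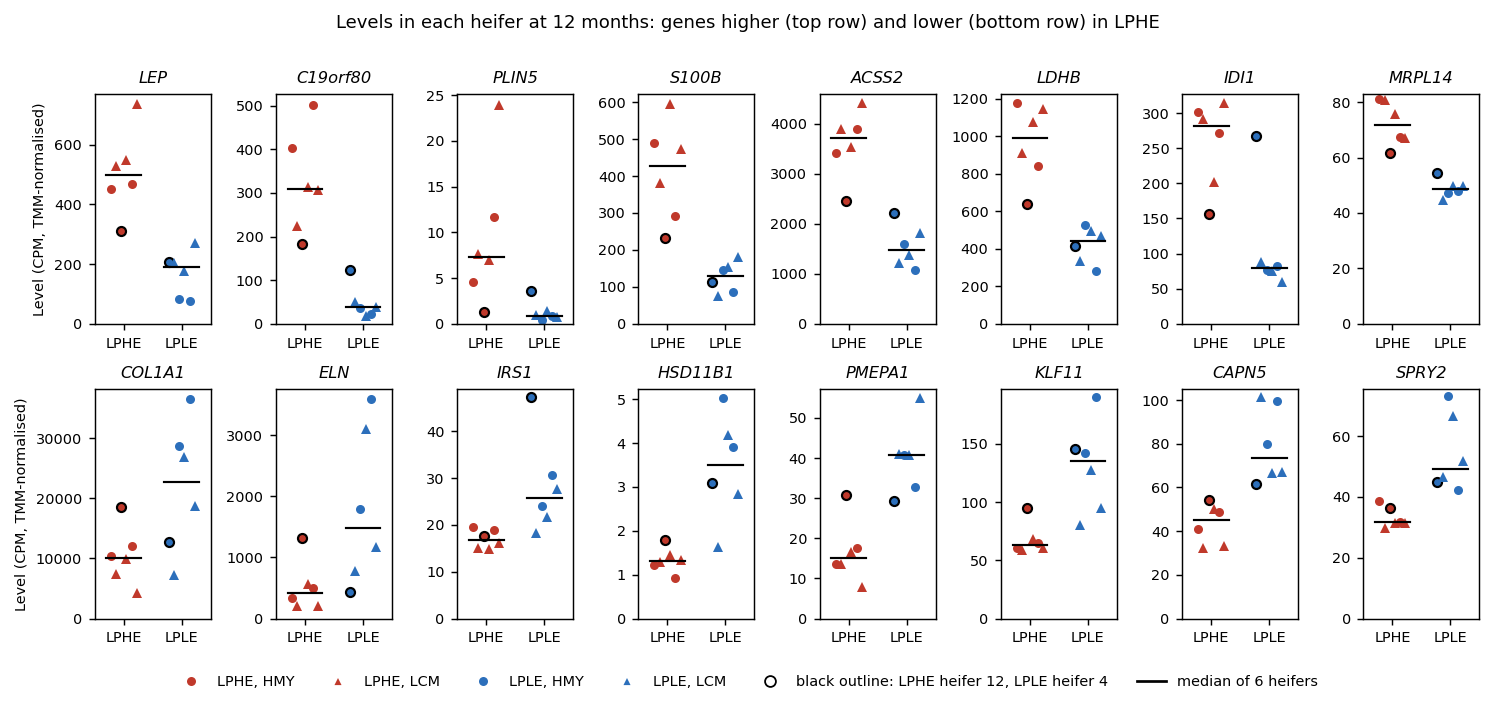
Level of 16 genes in each heifer at 12 months (y axis, TMM-normalised CPM from 0; x axis, diet), 8 higher in LPHE in the top row and 8 lower in the bottom row. Circles are HMY and triangles LCM heifers, lines are medians of 6 heifers, and a black outline marks LPHE heifer 12 and LPLE heifer 4. No heifer crosses over for LEP, C19orf80, S100B, ACSS2, LDHB, MRPL14, CAPN5 and SPRY2. Heifer 12 is the lowest LPHE heifer in all 8 genes of the top row, and heifer 4 is the highest LPLE heifer in those genes except LEP, S100B and LDHB.

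Single genes that act in or beside fatty acid synthesis were higher in LPHE. ACSS2, which activates acetate in the cytosol, ranged from 2451 to 4419 CPM (median 3719) in LPHE and from 1082 to 2213 CPM (median 1482) in LPLE, without overlap (log2 fold change 1.22 ± 0.24, FDR = 4.86e-04). ACACA, the carboxylase that makes malonyl-CoA, ranged from 1351 to 3377 CPM (median 2224) against 457 to 1162 CPM (median 981), also without overlap (log2 fold change 1.28 ± 0.29, FDR = 0.00255). FASN, the synthase itself, ranged from 9745 to 12628 CPM (median 11371) in LPHE and from 3538 to 10366 CPM (median 7005) in LPLE. The difference in FASN was smaller (log2 fold change 0.73 ± 0.25, FDR = 0.065), overlapped, since LPLE heifer 22 lay above LPHE heifers 3 and 24, and did not pass the quasi-likelihood F test (FDR = 0.106). FASN was called in 6 of 12 fits without 1 heifer, FDR up to 0.202 without LPLE heifer 18. ACACA and FASN were chosen for mention after their values were seen. Of the sources of NADPH, ME1 ranged from 44.6 to 316 CPM (median 145) against 18 to 60.5 CPM (median 46.9), with only heifer 12 among the LPLE heifers (log2 fold change 1.71 ± 0.37, FDR = 0.00163). IDH1, which also yields NADPH, was higher too (log2 fold change 0.86 ± 0.24, FDR = 0.0145). MPC1 and MPC2 form the carrier that brings pyruvate into mitochondria, and both rose. MPC1 ranged from 469 to 752 CPM (median 691) against 216 to 435 CPM (median 268), without overlap (log2 fold change 1.17 ± 0.23, FDR = 5.40e-04), and the log2 fold change of MPC2 was 0.81 ± 0.20 (FDR = 0.00515). LDHB, the lactate dehydrogenase subunit that favours pyruvate, ranged from 642 to 1179 CPM (median 993) against 284 to 529.9 CPM (median 441), without overlap (log2 fold change 1.19 ± 0.23, FDR = 3.09e-04). MLXIPL, which codes for the glucose-sensing lipogenic factor ChREBP, was higher by 0.57 ± 0.22 on the log2 scale (FDR = 0.0967, 0.128 by the quasi-likelihood F test) and was called in 2 of 12 fits without 1 heifer, FDR up to 0.266 without LPLE heifer 18.

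Enzymes of cholesterol synthesis were also higher in LPHE. Of the 23 genes listed for cholesterol synthesis and uptake, 6 had a symbol and 5 of these were higher. Among all 1006 tested genes with a symbol, 564 were higher DEG. IDI1, which isomerises the isoprenoid building block, ranged from 157 to 314 CPM (median 282) against 60.0 to 268 CPM (median 79.6) (log2 fold change 1.29 ± 0.32, FDR = 0.00606). LSS, which closes the sterol ring, ranged from 153 to 241 CPM (median 221) against 71.2 to 218 CPM (median 85.8) (log2 fold change 1.04 ± 0.27, FDR = 0.01). For both genes a single LPLE heifer made the overlap. Heifer 4 had 268 CPM of IDI1 and 218 CPM of LSS, and the other LPLE heifers reached at most 88.8 and 97.4 CPM. Without heifer 4 the log2 fold change of IDI1 was 1.72 (FDR = 2.47e-07). NSDHL and SC5D, which act later in the pathway, rose by 0.79 ± 0.20 (FDR = 0.00629) and 0.53 ± 0.17 (FDR = 0.0361) on the log2 scale, the latter called in 9 of 12 fits without 1 heifer, FDR up to 0.134 without LPLE heifer 18.

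Genes of the mitochondrion were higher in LPHE wherever a symbol was at hand, with few exceptions. Higher were 11 of 12 carriers of the inner membrane, all 8 named members of protein import, all 14 assembly factors of the respiratory chain and all 8 named proteins of the mitochondrial ribosome, and none of these was lower. The lists themselves hold 42, 30, 44 and 78 genes. Of all 1006 tested genes with a symbol, 564 were higher DEG, so high counts are favoured by how symbols were obtained. Among carriers of the inner membrane, the phosphate carrier SLC25A3 rose by 0.71 ± 0.18 (FDR = 0.00678) and the ADP/ATP carrier SLC25A4 by 1.26 ± 0.33 (FDR = 0.00911) on the log2 scale. Of the protein import machinery, TIMM23, the channel of the inner membrane, ranged from 43.6 to 89.9 CPM (median 73.1) against 29.3 to 62.8 CPM (median 38.6) (log2 fold change 0.84 ± 0.20, FDR = 0.00503). Heifer 12 lay below heifer 4, and no other pair of heifers crossed over. TOMM5 of the outer membrane (log2 fold change 0.91 ± 0.23, FDR = 0.00672), the presequence peptidase PMPCB (log2 fold change 0.73 ± 0.17, FDR = 0.0032) and the import chaperone HSPA9 (log2 fold change 0.69 ± 0.20, FDR = 0.0201) were higher as well. Factors that assemble the respiratory complexes rose in the same range, with 0.90 ± 0.21 for NDUFAF7 of complex I, 0.71 ± 0.20 for SDHAF4 of complex II and 0.80 ± 0.19 for UQCC1 of complex III, all log2 fold changes with FDR of at most 0.0157. The mitochondrial ribosome was represented by MRPL14, which did not overlap, at 61.8 to 81 CPM (median 71.6) in LPHE and 44.8 to 54.5 CPM (median 48.7) in LPLE (log2 fold change 0.56 ± 0.13, FDR = 0.00364). MRPL51 (0.47, FDR = 0.0193), MRPL13 (0.44, FDR = 0.0235) and MRPS36 (0.64, FDR = 0.0147), given with their log2 fold changes, also rose. MTERF2, which binds mitochondrial DNA, was higher without overlap (log2 fold change 1.02 ± 0.20, FDR = 4.86e-04). Of the genes encoded by that DNA, COX1 ranged from 37329.8 to 51502 CPM (median 42302) against 19073 to 33966 CPM (median 31609.7), without overlap (log2 fold change 0.59 ± 0.21, FDR = 0.0637), but its FDR was 0.106 by the quasi-likelihood F test and it was called in 7 of 12 fits without 1 heifer, FDR up to 0.182 without LPLE heifer 18. ND5 was not called (log2 fold change 0.48 ± 0.20, FDR = 0.128).

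Beyond metabolism, subunits of the proteasome, which breaks down tagged proteins, were higher in LPHE in 8 of the 10 cases with a symbol, of 31 listed. Higher DEG made up 564 of all 1006 tested genes with a symbol. PSMA3 of its alpha ring ranged from 78.5 to 144 CPM (median 111) against 58.2 to 98.7 CPM (median 74.9) (log2 fold change 0.57 ± 0.15, FDR = 0.00774), where heifer 12 lay below LPLE heifers 4 and 10 and the other LPHE heifers above all LPLE heifers. PSMA2, PSMB5 and PSMB7 rose by 0.62, 0.56 and 0.56 on the log2 scale, with FDR between 0.0105 and 0.0194. BHLHE41, a repressor of the circadian clock, ranged from 31.4 to 55.9 CPM (median 39.5) against 15.1 to 32.6 CPM (median 23.3) (log2 fold change 0.77 ± 0.18, FDR = 0.00383), and LPLE heifer 10 lay above LPHE heifers 16 and 20. NFIL3, another clock-linked repressor, rose by 1.02 ± 0.34 (FDR = 0.0476), and was called in 6 of 12 fits without 1 heifer, FDR up to 0.164 without LPLE heifer 18.

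**Figure D3:**
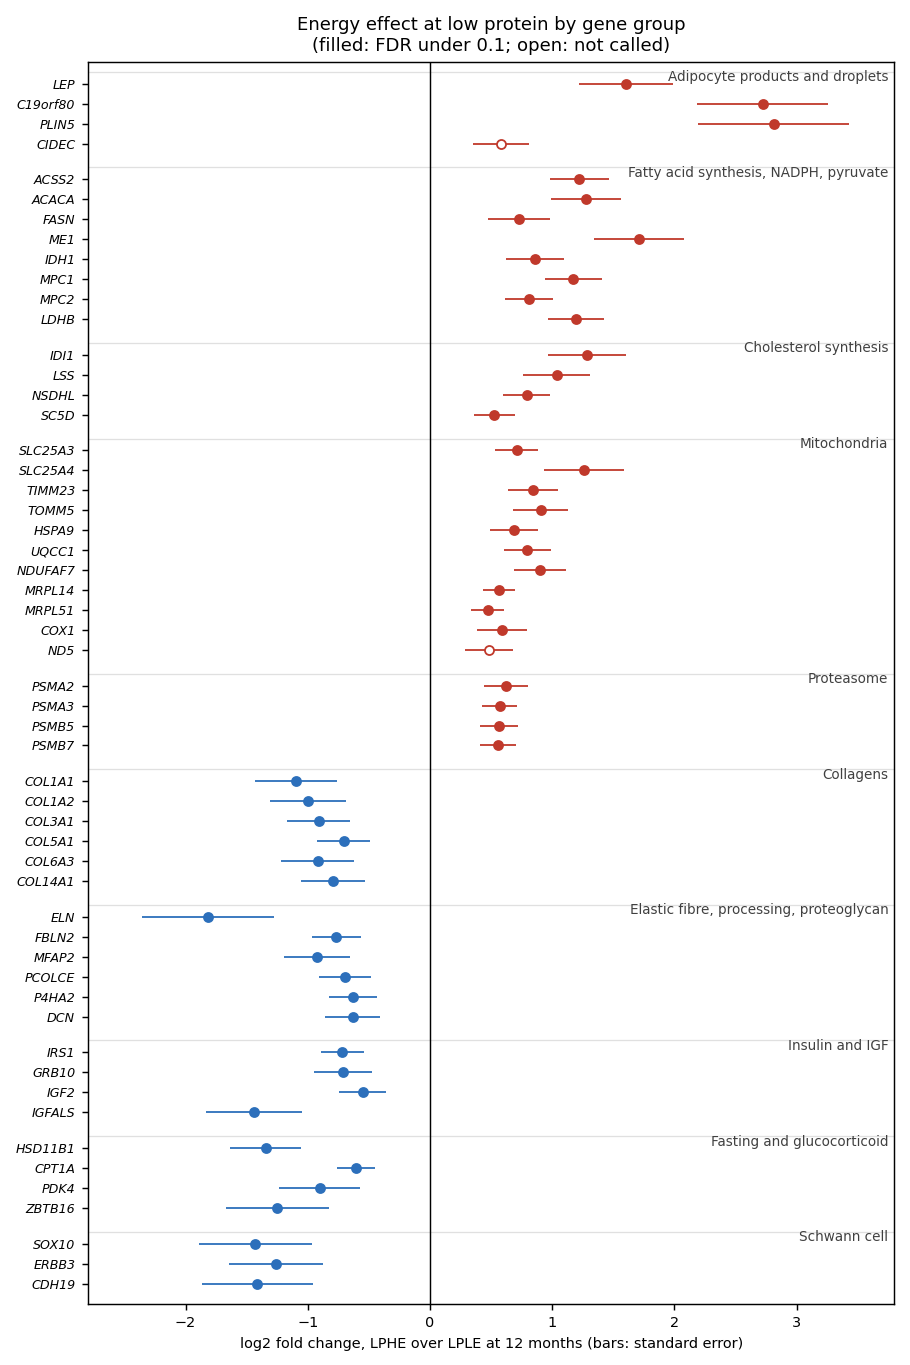
Log2 fold change of LPHE over LPLE at 12 months (x axis) for named genes (y axis) by gene group, with standard errors from the fit over 24 heifers. Filled points have an FDR under 0.1 and open points (CIDEC, ND5) do not. Metabolic, mitochondrial and proteasome genes lie right of 0, and matrix, insulin and IGF, fasting and Schwann cell genes lie left of 0.

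Genes of the extracellular matrix were among the DEG lower in LPHE, of which 284 had a symbol, out of 1006 tested genes with a symbol. All 4 named fibrillar collagens of 11 listed, all 3 other interstitial collagens of 14 and all 6 elastic fibre genes of 18 were lower. COL1A1, a chain of type I collagen, ranged from 4318 to 18614 CPM (median 10141) in LPHE and from 7256 to 36544 CPM (median 22733) in LPLE (log2 fold change -1.09 ± 0.33, FDR = 0.0305). The ranges overlapped widely, since LPLE heifers 8 and 4 had 7256 and 12728 CPM and LPHE heifer 12 had 18614 CPM. Its call held in 9 of the 12 fits that left out 1 heifer, and was lost without LPLE heifer 14 (FDR = 0.115), LPLE heifer 18 (FDR = 0.109) or LPHE heifer 24 (FDR = 0.105). COL3A1, the chain of type III collagen, ranged from 6400.4 to 18946 CPM (median 13212) against 12989 to 33849.5 CPM (median 24558) (log2 fold change -0.91 ± 0.25, FDR = 0.0156) and was called in all 12 of those fits. COL1A2 (-0.999, FDR = 0.0319), COL5A1 (-0.71, FDR = 0.0319), COL6A3 (-0.92, FDR = 0.0427) and COL14A1 (-0.79, FDR = 0.0475) were lower likewise, on the log2 scale. COL1A2 was called in 9, COL5A1 in 10, COL6A3 in 8 and COL14A1 in 7 of the 12 fits, with FDR up to 0.202 for COL6A3 without LPLE heifer 14 and 0.158 for COL14A1 without LPLE heifer 18. ELN, which codes for elastin, ranged from 199.7 to 1313 CPM (median 419) against 442 to 3583 CPM (median 1486) (log2 fold change -1.82 ± 0.54, FDR = 0.0258), and was called in 11 of 12 fits without 1 heifer, FDR up to 0.134 without LPLE heifer 18. Heifer 12 had 1313 CPM and the other LPHE heifers at most 564, whereas LPLE heifer 4 had 442 CPM. FBLN2 and MFAP2 of the elastic fibre fell by 0.77 ± 0.20 (FDR = 0.0101) and 0.92 ± 0.27 (FDR = 0.0208) on the log2 scale, and MFAP2 was called in 11 of 12 fits without 1 heifer, FDR up to 0.103 without LPLE heifer 18.

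Genes that mature or cleave the matrix were lower along with the collagens, in 4 of 6 named cases of collagen processing, 4 of 5 matrix proteases and inhibitors and 3 of 5 proteoglycans. PCOLCE, which helps to trim procollagen, fell by 0.70 ± 0.21 (FDR = 0.0291), the procollagen protease ADAMTS2 decreased by 0.59 ± 0.18 (FDR = 0.0313) and the proline hydroxylase subunit P4HA2 dropped by 0.63 ± 0.19 (FDR = 0.0316), all on the log2 scale. They were called in 11, 9 and 8 of the 12 fits, respectively, and each lost its call without LPLE heifer 18. ADAMTS5, which cleaves proteoglycans, was lower by a larger step (log2 fold change -1.24 ± 0.31, FDR = 0.00679). DCN, which codes for the proteoglycan decorin, was called by the likelihood ratio test (log2 fold change -0.63 ± 0.23, FDR = 0.0725) and had an FDR of 0.109 by the quasi-likelihood F test. It was called in 6 of 12 fits without 1 heifer, FDR up to 0.209 without LPLE heifer 18.

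Of 27 genes listed for TGF-beta and activin signalling 4 had a symbol and 3 of these fell, where 284 of all 1006 tested genes with a symbol were lower DEG. PMEPA1, a target and brake of TGF-beta signalling, ranged from 7.93 to 30.7 CPM (median 15.2) against 29.4 to 54.9 CPM (median 40.8) (log2 fold change -1.28 ± 0.26, FDR = 8.93e-04). Only heifer 12, at 30.7 CPM, reached the lowest LPLE heifer, which was heifer 4 at 29.4 CPM. KLF11, a transcription factor induced by TGF-beta, ranged from 58.8 to 95.3 CPM (median 62.9) against 80.1 to 190.4 CPM (median 135), with heifer 12 above LPLE heifers 8 and 22 (log2 fold change -0.92 ± 0.19, FDR = 0.00102). TGFB2, a ligand of that pathway, fell by 0.46 ± 0.16 (FDR = 0.0566) and was called in 8 of 12 fits without 1 heifer, FDR up to 0.161 without LPLE heifer 22. CREB3L1, a membrane-bound factor that switches on collagen genes, was lower by a log2 fold change of -1.14 ± 0.24 (FDR = 0.00113). SPRY2, an inhibitor of growth factor signalling, did not overlap, at 29.8 to 38.7 CPM (median 31.6) in LPHE and 42.2 to 73.3 CPM (median 49.3) in LPLE (log2 fold change -0.71 ± 0.16, FDR = 0.00333). All 4 named genes of Wnt signalling, of 42 listed, were lower, among them the inhibitor APCDD1 (-0.99, FDR = 0.0099) and the co-receptor LRP4 (-0.77, FDR = 0.0571), given with their log2 fold changes. LRP4 was called in 7 of 12 fits without 1 heifer, FDR up to 0.17 without LPHE heifer 5.

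Named genes of insulin action and of fasting were mostly lower in LPHE, in 5 of 6 cases of 26 listed for insulin and IGF signalling. All 4 named of 12 listed for the glucocorticoid and fasting response were lower too. Lower DEG were 284 of all 1006 tested genes with a symbol, so such counts are favoured by how symbols were obtained. IRS1, the docking protein of the insulin receptor, ranged from 14.9 to 19.5 CPM (median 16.9) against 18.2 to 47.4 CPM (median 25.8) (log2 fold change -0.72 ± 0.18, FDR = 0.00624). The LPHE heifers lay close together, and LPLE heifer 4 was the highest of all, on the far side from LPHE. GRB10, which dampens that receptor, fell by 0.71 ± 0.24 (FDR = 0.0476) and was called in 8 of 12 fits without 1 heifer, FDR up to 0.158 without LPLE heifer 22. IGFALS, which stabilises circulating IGF, fell by 1.44 ± 0.39 (FDR = 0.0128). The growth factor gene IGF2 ranged from 785 to 1864 CPM (median 1129.6) against 1102 to 2458 CPM (median 1678) (log2 fold change -0.55 ± 0.19, FDR = 0.0677), and its call held in only 3 of 12 fits without 1 heifer. HSD11B1, which regenerates active glucocorticoid, was low in every heifer, with 0.925 to 1.79 CPM (median 1.31) in LPHE and 1.63 to 5.03 CPM (median 3.51) in LPLE (log2 fold change -1.34 ± 0.29, FDR = 0.00162). Heifer 12 alone lay above an LPLE heifer, which was heifer 8. CPT1A, which admits fatty acids to mitochondrial oxidation, ranged from 32.6 to 46.6 CPM (median 40.3) against 43.5 to 86.8 CPM (median 60.7) (log2 fold change -0.61 ± 0.15, FDR = 0.00692), and again heifer 12 alone lay above an LPLE heifer, here heifer 22. PDK4, which blocks pyruvate oxidation in fasting, was lower by a log2 fold change of -0.90 ± 0.33 (FDR = 0.0844, 0.128 by the quasi-likelihood F test), and was called in 3 of 12 fits without 1 heifer, FDR up to 0.209 without LPHE heifer 5. ZBTB16, a glucocorticoid-responsive factor, fell by 1.25 ± 0.42 (FDR = 0.0537) and was called in 8 of 12 fits without 1 heifer, FDR up to 0.183 without LPLE heifer 14. NUCB2, the precursor of the satiety peptide nesfatin, fell by 0.99 ± 0.24 (FDR = 0.006), and the imprinted gene NNAT fell by 1.301 ± 0.40 (FDR = 0.0324), the latter called in 10 of 12 fits without 1 heifer, FDR up to 0.116 without LPLE heifer 22.

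LEP and CIDEC, the 2 of 12 adipocyte markers with a symbol, were detected in every heifer and summed to 1983 to 3275 CPM (median 2587) in LPHE and 858 to 2505 CPM (median 1427) in LPLE. Markers of some other cells moved with the genes that fell. Summed levels are given over the identified members of each marker list, which were few and mostly named because they were DEG. The 8 of 22 Schwann cell markers with a symbol summed to 15.7 to 64.8 CPM (median 22.8) in LPHE and 29.8 to 199 CPM (median 90.8) in LPLE, and 6 of the 8 were DEG, all lower. SOX10, the defining factor of that lineage, ranged from 0.599 to 3.37 CPM (median 1.39) against 1.83 to 6.92 CPM (median 4.2) (log2 fold change -1.43 ± 0.46, FDR = 0.0427), and its call held in 8 of 12 fits without 1 heifer. The 4 of 13 fibroblast and preadipocyte markers summed to 466 to 779 CPM (median 657) in LPHE and 612 to 2379 CPM (median 939.7) in LPLE, and 3 of them were lower. For blood vessel endothelium, T and NK cells, B cells, neutrophils and red cells no listed marker had a symbol. In bulk tissue, fewer cells of a type and less RNA per cell cannot be told apart, and the part of these markers in the results above was not tested.

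**Figure D4:**
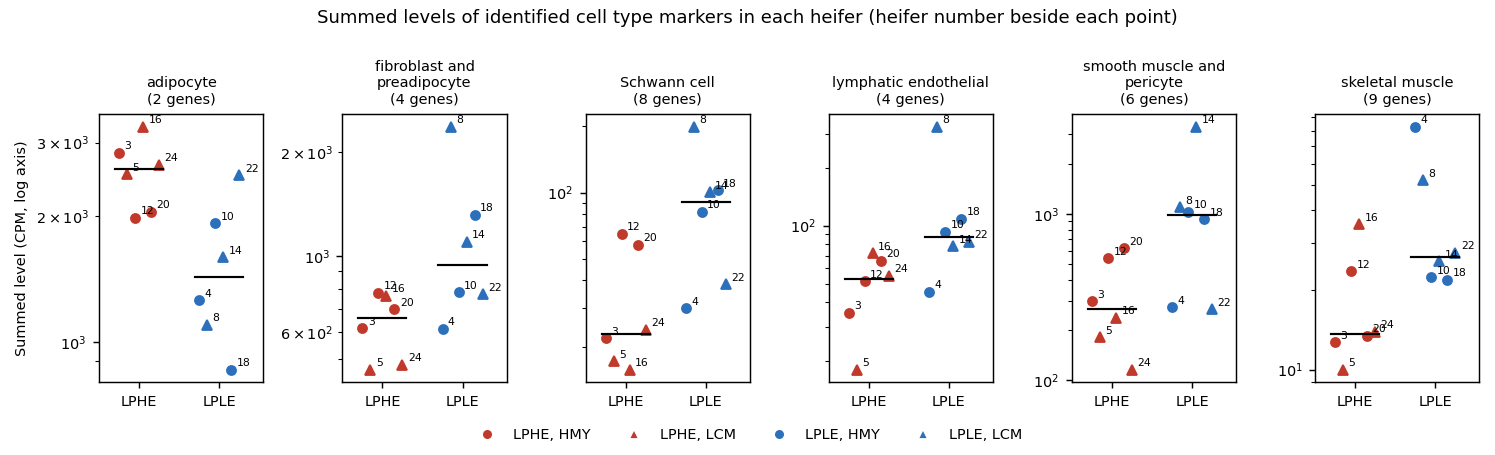
Summed level of identified cell type markers in each heifer at 12 months (y axes, TMM-normalised CPM, log scale; x axes, diet), with the heifer number beside each point. Circles are HMY and triangles LCM heifers, and lines are medians. LPLE heifer 8 is highest for Schwann cell, fibroblast and lymphatic markers, LPLE heifer 14 for smooth muscle markers and LPLE heifer 4 for skeletal muscle markers.

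For some other markers 1 LPLE heifer lay far above the rest. LYVE1 of lymphatic vessels ranged from 6.92 to 44.8 CPM (median 25.7) in LPHE and 18.2 to 216 CPM (median 44.1) in LPLE (log2 fold change -1.28 ± 0.49, FDR = 0.0954), with LPLE heifer 8 at the top. Without heifer 8 its log2 fold change was -0.60 (FDR = 0.413). ACTG2, an actin of smooth muscle, ranged from 1.8 to 17.2 CPM (median 9.79) against 4.81 to 410.3 CPM (median 43.8) (log2 fold change -2.71 ± 1.02, FDR = 0.0907). Its highest value was that of LPLE heifer 14, without which the log2 fold change was -1.66 (FDR = 0.333). LPLE heifers 8, 10 and 18, at 48.2, 39.5 and 65.7 CPM, also lay above every LPHE heifer. LPLE heifers 4 and 22 had 9.19 and 4.81 CPM. The 6 of 17 smooth muscle and pericyte markers with a symbol summed to 115 to 618 CPM (median 267) in LPHE and 266 to 3341 CPM (median 977) in LPLE. Of these markers 2 were called, both lower. STAB1, a scavenger receptor of macrophages and sinusoidal endothelium, was instead lower in every LPHE heifer, at 55.1 to 147 CPM (median 113) against 152 to 271 CPM (median 170.4) (log2 fold change -0.84 ± 0.24, FDR = 0.0163). Of 21 macrophage markers only 2 had a symbol, and the other, GPNMB, was not called (log2 fold change -0.48 to -0.02 in the fits without 1 heifer). Their sum was 116 to 320 CPM (median 188) in LPHE, highest in heifer 20, and 241 to 319 CPM (median 286) in LPLE. Genes of the contractile apparatus of skeletal muscle were lower too, on few reads, and 9 of 24 listed had a symbol, of which 6 were called. Of the 9, 2 were lower in every LPHE than in any LPLE heifer. TNNI2 ranged from 0.188 to 2.83 CPM (median 0.307) in LPHE and 1.54 to 5.08 CPM (median 3.46) in LPLE. It was called (FDR = 0.039), and in 10 of 12 fits without 1 heifer, FDR up to 0.122 without LPHE heifer 5. The 9 summed to 9.99 to 35.4 CPM (median 13.7) in LPHE and 21.8 to 82.8 CPM (median 26.7) in LPLE. ACTA1 had 0 to 6 counts in LPHE heifers, and in LPLE it had 837 in heifer 4, 531 in heifer 8, 170 in heifer 14 and 1 to 46 in the others. The myosin light chain MYL1 had 0 counts in all 6 LPHE heifers and also in LPLE heifers 10 and 22, against 243 in heifer 4 and 232 in heifer 8, so its fold change has no firm size. Without heifers 4 and 8 together there were 1716 DEG, 990 higher and 726 lower, and the log2 fold change of COL1A1 was -1.44 (FDR = 7.92e-04). Heifers 8 and 4 were the LPLE heifers with the lowest COL1A1, at 7256 and 12728 CPM, so leaving them out widens that difference by itself. Without heifer 4 alone the count of DEG was 1845. This fit therefore does not show what part the muscle genes had.

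The corresponding contrast at high protein, HPHE against HPLE, served to ask whether the energy effect depended on protein supply. There, 13 genes were called (0.0975% of those tested), of which 7 were also DEG at low protein in the same direction, among them S100B (log2 fold change 1.19 ± 0.24, FDR = 0.00536) and NNAT (log2 fold change -1.83 ± 0.40, FDR = 0.0156). Of the DEG at low protein, 704 of the 746 higher and 418 of the 470 lower genes had the same sign at high protein, where 70.2% of all tested genes did, and their median log2 fold changes there were 0.30 and -0.23. These genes were selected at low protein, so smaller medians at high protein are favoured by their choice. The difference between both energy effects was called for 10 genes (0.075%) by the likelihood ratio test and for 0 by the quasi-likelihood F test, with 557 and 531 genes at an unadjusted p under 0.05, respectively. For most genes the smaller effects at high protein were thus not shown to differ from those at low protein.

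CAPN5, a calpain protease, was 1 of those 10 genes. It was lower in every LPHE heifer than in any LPLE heifer, at 32.3 to 54.5 CPM (median 45.1) against 61.7 to 102 CPM (median 73.6) (log2 fold change -0.87 ± 0.16, FDR = 2.84e-04), and was not called at high protein (log2 fold change 0.03 ± 0.16, FDR = 0.976). The difference between both was -0.90 ± 0.23 (FDR = 0.0948). The other named genes among the 10 are known from immune cells or from responses to interferon and other inflammatory signals, and they were singled out after their values were seen. CD180, a receptor of B cells and macrophages, ranged from 0.835 to 4.93 CPM (median 2.06) in LPHE and 0.0816 to 0.663 CPM (median 0.537) in LPLE, without overlap (log2 fold change 2.58 ± 0.55, FDR = 0.00148), and the difference from the effect at high protein (log2 fold change -0.86 ± 0.52, FDR = 0.652) was 3.44 ± 0.76 (FDR = 0.0372). UBD, a ubiquitin-like protein induced by interferon, ranged from 6.17 to 22.1 CPM (median 7.82) against 0.843 to 5.18 CPM (median 3.39), without overlap (log2 fold change 1.65 ± 0.42, FDR = 0.00748). CXCL10, a chemokine that attracts T cells, ranged from 0.418 to 24.8 CPM (median 2.03) against 0.215 to 0.823 CPM (median 0.527) (log2 fold change 3.42 ± 0.89, FDR = 0.00871). LPHE heifer 24 had 24.8 CPM of CXCL10 and the next heifer 3.74, and without heifer 24 the log2 fold change was 1.88 (FDR = 0.134). PLAC8 had an energy effect of 2.24 ± 0.58 (FDR = 0.00871) at low protein. SELE, an adhesion molecule of activated endothelium, was not a DEG at low protein (log2 fold change 1.40 ± 0.72, FDR = 0.244) but fell at high protein (log2 fold change -3.12 ± 0.76, FDR = 0.0881). Outside those 10 genes, MX2, an antiviral protein induced by interferon, reached 478 CPM in LPHE heifer 24 and 154 CPM in LPLE heifer 18, with no call for the difference between protein levels (FDR = 0.6) and medians of 35.4 and 2.71 CPM in the diets (log2 fold change 4.27 ± 1.63, FDR = 0.0972). Without heifer 24 its log2 fold change was 1.96 (FDR = 0.478), and in the contrast within HMY heifers it was -0.84 (FDR = 0.936).

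**Figure D5:**
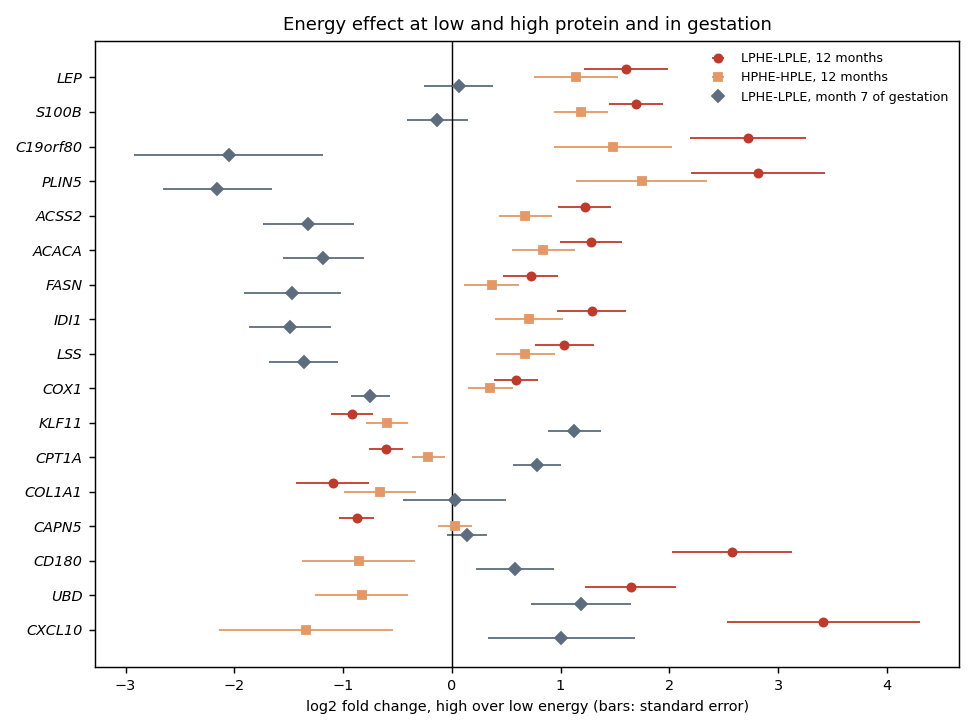
Log2 fold change of high over low energy (x axis, with standard errors) for 17 genes (y axis) in LPHE-LPLE heifers at 12 months (circles), in HPHE-HPLE heifers at 12 months (squares) and in LPHE-LPLE heifers in month 7 of gestation (diamonds). Metabolic genes from LEP to COX1 lie right of 0 at both protein levels, and most of them lie left of 0 in gestation. CD180, UBD and CXCL10 lie right of 0 at low protein and left of 0 at high protein.

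The energy effect was also estimated within each genetic group. Both contrasts came from a single fit over all 24 heifers of 12 months, with a term for each combination of diet and genetic group. In 3 against 3 HMY heifers 8 genes were called, and in 3 against 3 LCM heifers 1971. The median log2 fold change of the higher DEG was 0.45 in HMY and 0.83 in LCM heifers, and that of the lower DEG was -0.47 and -0.91, against -0.01 and -0.02 over all tested genes. The DEG were called on both groups pooled, so these medians are a description. The difference between both genetic groups came from a fit of the 12 LP samples. It was called for 6 genes (0.0459%), none with a symbol, by the likelihood ratio test and for 0 by the quasi-likelihood F test. At an unadjusted p under 0.05 these tests had 927 and 852 genes, respectively. Heifers 12 and 4, which lay toward the other diet, were both among the HMY heifers, so their part and that of the line cannot be told apart.

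In month 7 of gestation, when all heifers had the same diet, the contrast of former LPHE and LPLE heifers did not repeat that of 12 months. Per the study, low-energy heifers became pregnant at a later age, so former LPLE heifers were older at this sampling. That age difference cannot be told apart from the former diet, here and in the comparison of sampling times below. Of 13403 genes tested, 201 (1.5%) were called by the likelihood ratio test and 0 by the quasi-likelihood F test, with 1661 and 1792 genes at an unadjusted p under 0.05. Of the DEG of 12 months, 58 were among the genes called in gestation, and 57 of these had the opposite sign, 55 of them higher at 12 months. Among all 731 higher DEG tested at both times, 617 were lower in former LPHE heifers in gestation, and among 462 lower DEG 269 were higher, where 57.5% of all 13135 genes tested at both times changed sign. PLIN5 was lower in former LPHE heifers in gestation (log2 fold change -2.16 ± 0.50, FDR = 0.0133), and so were IDI1 (log2 fold change -1.49 ± 0.37, FDR = 0.0235), LSS (log2 fold change -1.36 ± 0.32, FDR = 0.0134), FASN (log2 fold change -1.47 ± 0.45, FDR = 0.0883) and COX1 (log2 fold change -0.75 ± 0.18, FDR = 0.0162). KLF11 (log2 fold change 1.13 ± 0.25, FDR = 0.00774) and CPT1A (log2 fold change 0.78 ± 0.22, FDR = 0.0586) were higher. LEP and S100B were near 0, with log2 fold changes of 0.06 ± 0.32 and -0.13 ± 0.28, and COL1A1 had 0.03 ± 0.48.

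Tested directly, the energy effect differed between the sampling times for 1226 genes (9.14% of those tested), and for 2407 (17.9%) with the heifer as a replicate block. Among the DEG of 12 months these tests called 554 of the higher and 152 of the lower genes without the block, and 649 and 275 with it. The DEG were chosen on the same libraries of 12 months that enter these tests, so the counts are a description. The difference was called for LEP (1.54 ± 0.38 on the log2 scale, FDR = 0.00341) and for ACSS2 (2.51 ± 0.52, FDR = 4.09e-04), but not for COL1A1 (-1.13 ± 0.51, FDR = 0.176, 0.243 with the block).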

How the data were processed

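RNA of 48 adipose tissue samples was sequenced, and the 12 LP samples of 12 months are described here. Per the labels and the study's methods, the authors trimmed reads with Cutadapt 1.3, aligned them to UMD3.1 with TopHat 2.0.12 and counted reads per gene with HTSeq, and the deposited values are raw counts; the labels also list SAMtools 1.19. The annotation release and strand setting are not given in the sources used here, so overlapping genes may share reads.

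The summary rows of the counting tool were dropped; genes took 50.7 to 60.7% of counted reads in the LP samples of 12 months. Genes reaching 2 CPM in 3 or more of the 24 12-month samples were kept, normalised with TMM and fitted in edgeR 4.0.16 (R 4.3.3) with diet and genetic group. The likelihood ratio test, with Benjamini-Hochberg adjustment, gave the p-values, and standard errors were derived from its statistic (absolute log2 fold change over the root of the statistic). Levels are TMM-normalised CPM. Exact permutation tests (two-sided, 924 splits) used log2(CPM + 0.5). Samples of 1 diet differed by a chi-square of at least 56.1 per degree of freedom, so none were treated as repeats. Depth was at least 14815595 counts, and the spread between heifers limited precision. Scripts were tested on simulated data.

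Alternatives were the quasi-likelihood F test, DESeq2 1.42.0, other scaling, filters, samples, covariates and thresholds, each heifer left out, and the contrast within each genetic group. Between sampling times the heifer served as a block, since the same 12 animals gave both samples; deviations of the same heifer correlated at -0.064 to 0.571. Genes named are, outside the study's tables, the 12 higher and 12 lower DEG with the smallest p-values, the 3 largest changes each way, up to 4 DEG of each gene list and a fixed set of genes, with additions stated, and the text gives those with a known role. Members, lists and tests were chosen with earlier results of these data known. Symbols came from the study's tables, as no map from identifiers was at hand, so lists had identifiers for at most 50% of their members and counts over them are descriptions. Lists with no identified member or none called were left out. No sequences were used here, and some genes are not reported here.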

Additional observations from a re-analysis of the deposited data

Results flagged for a closer look

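Of 76 groups of 6 heifers (38 genes in both diets), 13 held a heifer far from the other 5 of its diet by Dixon's test on CPM. That test flags about 5% of groups by chance where values are normally distributed, and every flagged heifer here lay above the others. Some of the genes were chosen after their values were seen, so the 5% is no baseline for these 13. LPLE heifer 4 was that heifer, above the others, for C19orf80 (124 CPM), PLIN5 (3.56 CPM), MPC1 (435 CPM), IDI1 (268 CPM), LSS (218 CPM) and TIMM23 (62.8 CPM), that is in 6 of the 13 cases and each time on the side of the LPHE heifers. LPHE heifer 12 stood apart for ELN (1313 CPM) and KLF11 (95.3 CPM), above the others and each time on the side of the LPLE heifers. LPHE heifer 24 was far above its diet for CXCL10 (24.8 CPM) and MX2 (478 CPM), LPLE heifer 18 for MX2 (154 CPM), LPLE heifer 8 for LYVE1 (216 CPM) and LPLE heifer 14 for ACTG2 (410.3 CPM).

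The energy effect differed between protein levels for 4 of the 38 genes, by the likelihood ratio test of the difference on the log2 scale. It was -0.90 for CAPN5, 4.76 for CXCL10, 2.47 for UBD and 3.44 for CD180, and none passed the quasi-likelihood F test. Over all tested genes this difference was called for 10 (0.075%), and CXCL10, UBD and CD180 are among the 38 because they were singled out from those 10 after their values were seen.

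Between 12 months and month 7 of gestation the effect differed for 28 of the 38 genes, again by the likelihood ratio test of the difference (effect at 12 months minus effect in gestation, log2 scale). It was positive for the adipocyte genes LEP (1.54), C19orf80 (4.61), PLIN5 (5.02) and S100B (1.79), and for the metabolic genes ACSS2 (2.51), ME1 (2.21), ACACA (2.32), FASN (2.06), MPC1 (1.36), LDHB (1.48), IDI1 (2.81) and LSS (2.41). Positive values were also found for TIMM23 (1.40), MRPL14 (0.79), COX1 (1.32), PSMA3 (0.74), BHLHE41 (0.82), CRYAB (2.34) and CD180 (1.997). It was negative for ELN (-1.78), IRS1 (-0.88), HSD11B1 (-1.16), CPT1A (-1.41), PMEPA1 (-1.48), KLF11 (-2.09), CAPN5 (-1.02), STAB1 (-1.01) and ACTA1 (-6.27), the last on few reads. Since the 38 genes were mostly taken from DEG of 12 months, a difference in this direction is favoured by their choice.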

How the results depend on the processing

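The number of DEG between LPHE and LPLE at 12 months was 1216, with 746 higher and 470 lower. It stayed within 1.5 times of this, in all and in each direction, with the quasi-likelihood F test (1035), DESeq2 (1615), RLE size factors (1222), unfiltered genes (1103), a minimum of 10 counts per sample (1150), the 12 LP samples alone (854) and no term for genetic group (1206). Scaling by library size alone gave 539 higher and 735 lower genes, which turned the split between directions. A fit over all 48 samples called 1909 genes (1188 higher, 721 lower), and an FDR under 0.05 left 707 (482 and 225). The contrast within HMY heifers gave 8 DEG (6 and 2) and that within LCM heifers 1971 (1051 and 920). Of alternatives chosen after seeing the data, dispersions with a prior weight of 10 degrees of freedom gave 944 DEG, and leaving out LPLE heifers 4 and 8 gave 990 higher and 726 lower. The causes were not tested.

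Leaving out 1 heifer at a time gave 607 to 2272 DEG, with 421 to 1230 higher and 167 to 1042 lower. The count was lowest without LPLE heifer 18 for all and for higher genes and without LPHE heifer 24 for lower genes, and highest without LPHE heifer 12 throughout. The difference between the energy effects at both protein levels was called for 10 genes, for 1 to 30 without 1 heifer (30 without LPLE heifer 18) and for 0 by the quasi-likelihood F test. That test also gave 0 for the difference between genetic groups and for the contrast in gestation. For the difference between sampling times, 1226 genes were called without and 2407 with the heifer as replicate block, and 1083 by the quasi-likelihood F test without it. At 12 months no paired analysis was possible because each heifer had 1 diet and numbers were not shared between diets. Of 154 named genes, 139 lost their call in the contrast within HMY heifers and 15 in that within LCM heifers. The quasi-likelihood F test lost 21 and the fit of the 12 LP samples alone lost 20. Without 1 heifer, 2 to 48 lost it, the most without LPHE heifer 5 (48), LPLE heifer 18 (46), LPHE heifer 24 (46) and LPLE heifer 14 (37). Of the named genes called in the main fit or the alternative, none changed direction except MX2, which was -0.84 in the contrast within HMY heifers. Changes of direction in genes called in neither fit were not counted. COL1A1 had an FDR of 0.103 in the fit over all 48 samples. Symbols for only part of the genes, the overlap of most ranges and the few heifers per genetic group limit what the counts can show. Whether depth limited genes under 2 CPM in most heifers was not tested.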

Other observations

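Several of the genes with the smallest p-values were not described above. PIR, an iron-binding nuclear protein, was higher in LPHE (log2 fold change 1.27 ± 0.24, FDR = 3.09e-04), with 23.5 to 77.9 CPM (median 49.7) against 16.6 to 27.6 CPM (median 21.6). Heifer 12 alone lay among the LPLE heifers. QPRT, which makes NAD from quinolinate, behaved alike (log2 fold change 1.43 ± 0.28, FDR = 4.86e-04), at 92.3 to 189.5 CPM (median 138) against 36.9 to 96.2 CPM (median 45.8), with LPLE heifer 4 above LPHE heifers 12 and 24. BAIAP2L1, which shapes the cell membrane with actin, ranged from 5.7 to 26.1 CPM (median 15) against 1.94 to 5.2 CPM (median 4.65), without overlap (log2 fold change 1.77 ± 0.36, FDR = 8.32e-04), and was also called at high protein (log2 fold change 1.40 ± 0.36, FDR = 0.0975). LOC518623, a locus without a gene name, was higher by 1.81 ± 0.30 on the log2 scale (FDR = 9.55e-06), and CMC2, an assembly factor of cytochrome c oxidase, by 0.81 ± 0.16 (FDR = 5.01e-04). Lower in LPHE were the kinase genes ALPK3 (log2 fold change -1.27 ± 0.29, FDR = 0.00255) and TNK2 (log2 fold change -0.75 ± 0.17, FDR = 0.00282), the microtubule linker CLIP2 (log2 fold change -0.83 ± 0.19, FDR = 0.00261), TTC38 (log2 fold change -1.03 ± 0.23, FDR = 0.00298) and DENND2A (log2 fold change -0.82 ± 0.19, FDR = 0.00364). TSKU, a secreted protein and 1 of the 3 lower proteoglycans counted above, was lower as well (log2 fold change -0.81 ± 0.18, FDR = 0.00196). ALPK3 did not overlap between the diets, with 12.9 to 23.3 CPM (median 16.2) against 25.2 to 56.5 CPM (median 42.7).

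Of 23 genes listed for the renin-angiotensin system and vasoactive peptides 8 had a symbol, and 3 of these were lower in LPHE, while the list as a whole did not move in 1 direction. The lower genes were the angiotensin receptor AGTR1 (log2 fold change -0.86 ± 0.23, FDR = 0.0106), the converting enzyme ACE (log2 fold change -0.99 ± 0.34, FDR = 0.0566) and DDAH2, which degrades an inhibitor of nitric oxide synthesis (log2 fold change -0.53 ± 0.19, FDR = 0.0716). ACE and DDAH2 were each called in 7 of the 12 fits without 1 heifer. Small heat shock proteins were split, with CRYAB higher and HSPB6 lower (log2 fold change -0.83 ± 0.25, FDR = 0.0264, called in 11 of 12 fits without 1 heifer, FDR up to 0.105 without LPLE heifer 18). PTGES2, a prostaglandin E synthase, was higher (log2 fold change 1.005 ± 0.28, FDR = 0.0175). PEX19, which helps to insert peroxisomal membrane proteins, was not called (log2 fold change 0.54 ± 0.22, FDR = 0.12).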
